A study of Strongylocentrotus purpuratus with 5 samples.

Results

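Regions of open chromatin that were called in 12 h embryos of *Strongylocentrotus purpuratus*, the purple sea urchin, and that overlapped no 20 h peak and lay far from every pooled 20 h region, were examined. A 12 h region was taken when it overlapped no peak of any of the 3 separate 20 h libraries and lay more than 5000 bp from every region of the pooled 20 h list, on a scaffold that held at least 1 such region. The regions were thus chosen by their own absence from the 20 h lists, and there were 3195 of them among the 238838 pooled 12 h regions, or 1.34%. These are called isolated 12 h only regions. Embryos were grown at 15 °C and collected whole at 20 h and at 12 h, and the labels call both stages hatching blastula. The labels name 3 libraries at 20 h and 2 at 12 h, with no mutation or treatment at either stage. The 20 h libraries are technical replicates 1 and 2 of biological replicate 1, made with another published nuclear preparation, and 1 library of biological replicate 2, made with a density gradient as were both 12 h libraries. Each 12 h library is a biological replicate, and both enter here only through 1 pooled list. Per the study's methods the earlier stage had the deeper sequencing. A weak site can therefore be listed at 12 h and missed at 20 h. The part of depth was not tested.

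ATAC-seq uses a transposase that cuts DNA where it is not wrapped in nucleosomes and leaves sequencing adapters there, so that cuts pile up at promoters, enhancers and other cis-regulatory elements. In blastulae the early territories of the embryo are being set up by a network of regulatory genes, and elements of such genes often lie in groups along the DNA. A whole embryo gives 1 signal for all its territories, so that an element open in few cells and one weakly open in many cannot be told apart. Positions below are 1-based on scaffolds of genome version 3.1, and no region was assigned to a gene.

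Each condition of the rule set aside a part of the 12 h list. Of all 12 h regions, 86141, or 36.1%, overlapped no pooled 20 h region, and 49336, or 20.7%, overlapped no peak of any 20 h library. Only 4322, or 1.81%, lay more than 5000 bp from every pooled 20 h region of their scaffold, and the 3195 isolated regions are those of the 4322 without a library peak. They were 3.71% of the 12 h only regions, which are the 12 h regions without a pooled 20 h counterpart. The number depends on the distance limit, with 10512 regions at 2000 bp and 1264 at 10000 bp. It also depends on the 20 h list, with 14679 regions when the pooled 20 h list was reduced to regions found in each biological replicate. These values chose the regions and are given as a description. With 1 pooled list per stage, no difference below between isolated and other regions has a replicate test, and the intervals cover counting error only.

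Regions just inside and just outside the distance limit were compared by position and length. The nearest isolated regions lay 5002 bp from a 20 h region on scaffold 15 (784222 to 784405), 5004 bp on scaffold 1486 (162931 to 163118) and 5006 bp on scaffold 1909 (43294 to 43463). The next ones, on scaffold 825 (194773 to 194952) and on scaffold 134 (158004 to 158158), lay at 5008 bp and 5009 bp. All 5 were between 155 bp and 188 bp long. Just outside the limit were regions of scaffold 11 (258913 to 259309), scaffold 368 (377306 to 377465), scaffold 486 (16779 to 17044) and scaffold 753 (334645 to 334865), each at 5000 bp. The fifth was on scaffold 317 (696056 to 696250), at 4999 bp, and these 5 were 160 bp to 397 bp long. Within 500 bp of the limit the median length was 210 bp for 405 isolated regions and 207 bp for 447 regions on the near side that also lacked a library peak.

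Isolated regions were short. Their median length was 217 bp (95% interval from ranks 212 to 221), with quartiles at 179 bp and 316 bp and a range of 150 bp to 2803 bp, against a median of 327 bp (326 to 328) for all other 12 h regions. Regions under 200 bp made up 41.3% of the isolated ones (95% Wilson interval 39.6 to 43.1) and 16.3% (16.2 to 16.5) of the others. No region of either pooled list was shorter than 150 bp. Isolated regions covered 0.878 Mb, against 95.8 Mb for the other 12 h regions. A longer region has more chance to overlap a peak, so that length is not independent of the rule.

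Set against the most similar regions, the difference was smaller and lay in the tail. The 43029 regions that were 12 h only and without a library peak, but within 5000 bp of a 20 h region, had a median of 221 bp (220 to 222) and an upper quartile of 298 bp, below the 316 bp of isolated regions. Isolated regions reached at least 1000 bp in 22 cases, or 0.689% (0.455 to 1.04), against 53 of the nearby ones, or 0.123% (0.0942 to 0.161). At the short end, 41.3% of isolated and 37.9% (37.4 to 38.3) of nearby regions were under 200 bp. Isolated regions therefore had more of both very short and very long members than their nearby counterparts. A long region close to a 20 h region tends to overlap it and so leaves the nearby class. Among the regions overlapping a pooled 20 h region, 8679 reached at least 1000 bp. The difference at the long end thus follows in part from how the classes were defined. The 1127 regions beyond 5000 bp that did overlap a library peak had a median of 242 bp, and those overlapping a pooled 20 h region had 390 bp.

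**Figure D1:**
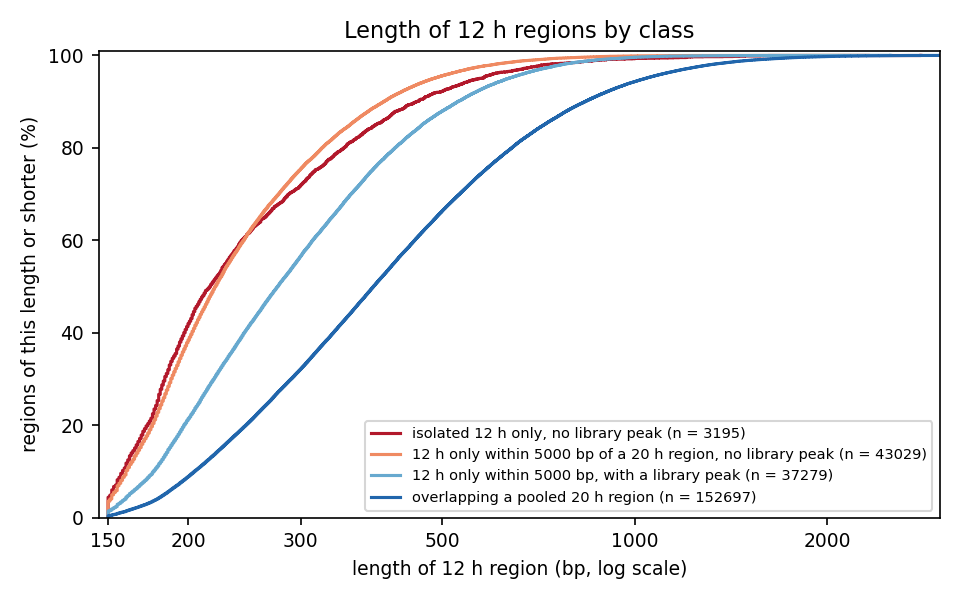
Cumulative share of 12 h regions by length (x axis, bp on a log scale; y axis, percent of regions of that length or shorter) for isolated 12 h only regions and 3 other classes of 12 h regions. The curve of isolated regions runs beside that of nearby regions without a library peak, with medians of 217 bp and 221 bp, and lies below it at lengths of 300 bp and more, while regions that overlap a 20 h region have a median of 390 bp.

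By length, the share of all 12 h regions that were isolated was 3.32% (3.15 to 3.497) from 150 bp to under 200 bp and 0.247% (0.163 to 0.373) from 1000 bp upward. Among 12 h only regions the order did not hold at the long end. There the share was 4.98% in the shortest class and between 3.03% and 3.44% in the 3 middle classes. From 1000 bp upward it was 9.05%, where 22 of 243 regions were isolated. Long regions close to a 20 h region tend to overlap it and are then not 12 h only, so that this last share follows in part from the classes.

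With 2803 bp, the longest isolated region was that of scaffold 1319 (13796 to 16598). The nearest 20 h region was 19211 bp to its right, none lay to its left, and a peak of replicate 2 was 999 bp away. The second, on scaffold 207 (614846 to 616462), was 1617 bp long and stood alone, with 14766 bp to the 20 h region on the left, 29511 bp to that on the right and 30127 bp to the nearest other 12 h region. A region of 1589 bp on scaffold 437 (169630 to 171218) was the opposite case, with another 12 h region 176 bp away and a 20 h region at 5298 bp. Scaffold 983 held a region of 1568 bp from 533805 to 535372 with no 20 h region to its right.

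The 6 others of the 10 longest were between 1277 bp and 1486 bp. They lay on scaffold 211 (58801 to 60286), scaffold 2376 (29357 to 30842), scaffold 2220 (4123 to 5576), scaffold 134 (435830 to 437254), scaffold 163 (732470 to 733842) and scaffold 87 (743382 to 744658). The region on scaffold 2220 was the most remote of the 10, with 44755 bp to a 20 h region and 44731 bp to the nearest library peak. The region on scaffold 87 had library peaks close by, at 60 bp in replicate 2 and 640 bp in technical replicate 2, although none overlapped it. Long isolated regions were thus found both alone and inside groups, since 8 of the 10 had at least 1 isolated neighbour and 2 had none.

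Most isolated regions lay not far beyond the limit. The median distance to a pooled 20 h region was 8324 bp, with quartiles at 6197 bp and 13598.5 bp. Distances of more than 10000 bp were found for 1264 regions, or 39.6%, more than 20000 bp for 414, or 12.96%, and more than 50000 bp for 52, or 1.63%. A 20 h region lay on both sides of 2205 isolated regions, and 990, or 31.0%, lay beyond the outermost 20 h region of their scaffold. The median length was 217 bp where 20 h regions lay on both sides and 215 bp beyond the outermost one.

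Of the regions with a 20 h region on both sides, the most remote was on scaffold 2819 (166975 to 167177), 203 bp long, with 127447 bp to the left and 72798 bp to the right. The next, of 152 bp on scaffold 136 (311622 to 311773), had 72187 bp and 77702 bp. A region of 222 bp on scaffold 499 (286416 to 286637) had 59903 bp and 59717 bp and so lay almost midway. The last of the 5 were both on scaffold 435, from 254947 to 255649 and from 258183 to 258392, with 56961 bp and 54218 bp to the nearest 20 h region. They belonged to the same run of 9 isolated regions, whereas the region on scaffold 2819 had no other 12 h region within 127426 bp.

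The share of 12 h only regions without any library peak was higher the farther they lay from pooled 20 h regions. It was 49.99% (49.4 to 50.6) of 28825 regions within 500 bp, 60.3% (59.4 to 61.1) at 2000 to 5000 bp, 70.7% (68.97 to 72.4) at 5000 to 10000 bp and 82.3% (78.4 to 85.6) at 20000 to 50000 bp. Beyond 5000 bp as a whole it was 73.9% (72.6 to 75.2), against 53.6% (53.2 to 53.9) of the 80308 12 h only regions within 5000 bp. In each library the share with a peak was lower at each greater distance up to the class of 20000 to 50000 bp, except that replicate 2 had 16.2% both at 500 to 1000 bp and at 1000 to 2000 bp. Technical replicate 1 had a peak at 16.1% of regions within 500 bp, 3.698% at 5000 to 10000 bp and 2.73% at 20000 to 50000 bp. Technical replicate 2 had 25.1%, 17.4% and 9.55%, and replicate 2 had 17.9%, 9.96% and 6.14%. The pooled 20 h list was called on the same libraries, so that distance from it and peaks in them are not independent measures.

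**Figure D2:**
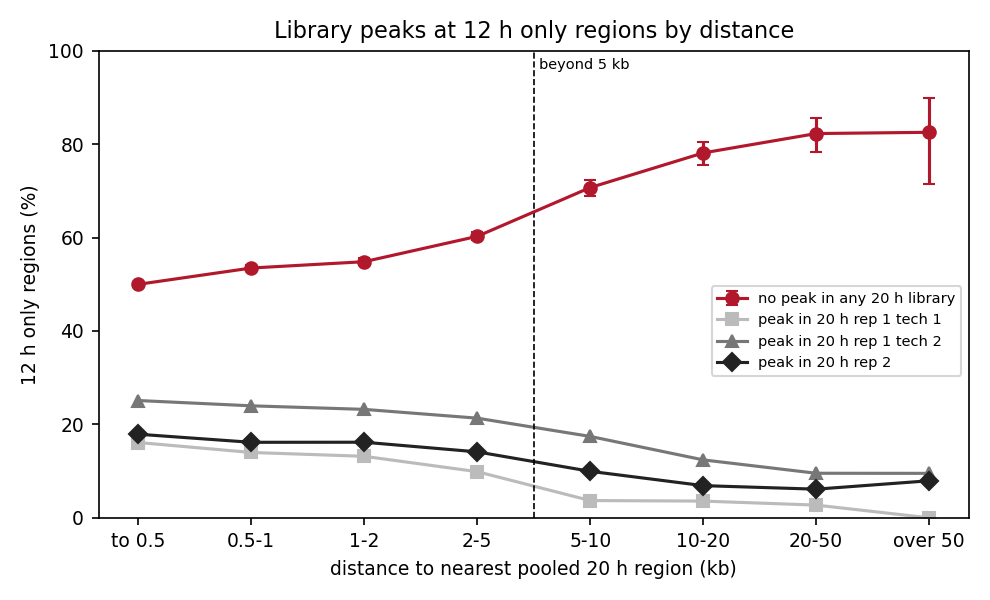
Share of 12 h only regions (y axis, percent) by distance to the nearest pooled 20 h region (x axis, kb), without a peak in any 20 h library (red, with 95% Wilson intervals) and with a peak in each library (grey to black). Right of the dashed line the red points are the isolated regions, at 70.7% to 82.5%, and the lines of all 3 libraries lie lower there than at the left end.

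The 1127 regions beyond 5000 bp with a library peak seldom had it in more than 1 library. A peak in 1 library was found for 1064 and in 2 libraries for 63, and none had a peak in all 3. In both biological replicates a peak was found for 39, or 0.902% of the 4322. No such count is given for 12 h only regions within 5000 bp, so that these numbers cannot be read as particular to distant regions. Technical replicate 2, whose list reached the limit of 300000 peaks, gave 659 of these overlaps, against 379 in replicate 2 and 152 in technical replicate 1. The study's quality report, matched by number of peaks, gives technical replicate 2 the highest share of duplicate reads. It gives replicate 2 the fewest reads after filtering. Differences between libraries here and below may reflect this, which was not tested. Without technical replicate 2 the rule would have taken 3801 regions.

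Ground around isolated regions was not bare of 20 h signal. A library peak lay within 5000 bp of 1689 isolated regions, or 52.9%, and within 1000 bp of 647, or 20.3%, and the other 1506 had none within 5000 bp. By library, 16.8%, 35.96% and 20.97% of isolated regions had a peak within 5000 bp in technical replicates 1 and 2 and in replicate 2. The strength of these peaks differed between replicates. Their median fold enrichment over local background was 2.68, 2.58 and 2.92. All peaks more than 5000 bp from every pooled 20 h region had the same medians, so that these values were not particular to the surroundings of isolated regions. All peaks of the same library had 2.82, 2.68 and 2.82. Against these, the median beside isolated regions was lower in both technical replicates of replicate 1 and higher in replicate 2. The median −log10 p showed the same split, with 2.70, 2.60 and 3.24 beside isolated regions and 3.12, 3.12 and 3.03 over all peaks. The mean over biological replicates of the median fold enrichment was 2.78 ± 0.208 beside isolated regions and 2.78 ± 0.0468 over all peaks (SD, n = 2). A q below 0.05 was reached by 32.5%, 15.7% and 14.7% of the peaks beside isolated regions and by 52.0%, 54.4% and 30.7% of all peaks. The highest fold enrichment beside an isolated region was 5.82, in replicate 2.

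Library peaks were sparse there but denser than in the rest of the ground more than 5000 bp from pooled 20 h regions. The rule keeps pooled 20 h regions out of the 5000 bp on each side, so that the low density follows in part from it. In the 5000 bp on each side of isolated regions the libraries had 24.7, 58.0 and 29.4 peaks per Mb, against 278, 326 and 177 per Mb over the span of all scaffolds with a 20 h region. The mean over biological replicates was 35.4 ± 8.44 peaks per Mb beside isolated regions and 239.6 ± 87.9 over the whole span (SD, n = 2). A closer comparison is ground more than 5000 bp from every pooled 20 h region, which made up 159.6 Mb or 18.4% of the span. Within it, the libraries had 18.7, 49.6 and 24.7 peaks per Mb within 5000 bp of isolated regions and 10.96, 32.5 and 11.3 elsewhere. Density was higher beside isolated regions in all 3 libraries, by ratios of 1.70, 1.53 and 2.19, or 1.90 ± 0.404 on average (SD, n = 2 biological replicates). An exact test over 2 biological replicates cannot reach a p of 0.05.

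Other 12 h regions were also more frequent near isolated ones in this ground, at 23.2 per Mb within 5000 bp and 6.53 per Mb elsewhere, a ratio of 3.56. All 12 h regions together had 28.3 per Mb in ground more than 5000 bp from 20 h regions, against 273 per Mb over the span, but this ground cannot hold the 12 h regions that overlap a 20 h region. In the rest of the span, with pooled 20 h regions themselves taken out, 12 h only regions alone had 128 per Mb. How much of this ground is assembly gap or repeat to which reads cannot be mapped was not tested.

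The rule keeps isolated regions away from the 12 h regions that overlap a pooled 20 h region, 63.9% of the 12 h list, and so fixes in large part their distance from other open chromatin at 12 h. The median gap to the nearest other 12 h region was 3675 bp (quartiles 841.5 and 7940 bp), against 619 bp (277 and 1340 bp) for all other 12 h regions and 658 bp for nearby 12 h only regions without a library peak. To the nearest other 12 h only region, the median gap was 3840 bp for isolated regions (quartiles 868 and 12276 bp) and 2130 bp for the nearby ones (756 and 5042 bp), with regions that had none on their scaffold counted as farthest. Of the isolated regions, 1417, or 44.4%, lay more than 5000 bp from any other 12 h region, and 883, or 27.6%, lay within 1000 bp of one. The 1417 include 44 that were the sole 12 h region of their scaffold.

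Despite this spacing, isolated regions followed each other along scaffolds. Of 2805 with a further 12 h region on the scaffold, 923 were followed by another isolated region, or 32.9% (31.2 to 34.7), against 0.82% of other 12 h regions and an overall share of 1.34%. A next region in the same stretch between 20 h regions tends to meet the distance condition as well, so that part of this follows from the rule. Of the 923, 894 were followed within the same stretch and 29 across a pooled 20 h region. Where the next region was also beyond 5000 bp, it was isolated in 79.98% (77.6 to 82.2) of 1154 cases, and in 68.2% (63.1 to 72.9) of 346 cases where the first region had a library peak. A run is a series of isolated regions with no other 12 h region between them, and it may span a 20 h region. Consecutive isolated regions formed 570 runs of 2 or more, which held 1493 regions, or 46.7%, and 1702 regions were single. A pooled 20 h region lay inside 29 of the 570 runs. There were 386 runs of 2, 109 of 3, 43 of 4 and 32 of 5 or more, with 222 regions in the last group. Of these 32 runs, 4 spanned a 20 h region, and none of the 5 named below did.

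The longest run had 11 isolated regions on scaffold 814 (236583 to 261957). Their lengths along the scaffold were 659, 208, 346, 222, 401, 182, 512, 421, 570, 438 and 346 bp, so that 17.0% of the 25.4 kb was open at 12 h. No library had a peak within it. The nearest peaks lay 3399 bp away in replicate 2, 6645 bp in technical replicate 1 and 7296 bp in technical replicate 2.

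Runs of 10 were found on scaffold 626 (151935 to 168187), scaffold 87 (732292 to 758231) and scaffold 72 (243208 to 269891). The run on scaffold 626 was the densest of these, with 20.3% of 16.3 kb open, regions of 197 bp to 515 bp and no library peak between them. The run on scaffold 87 held 6 library peaks between its regions, 2 in technical replicate 2 and 4 in replicate 2, and the run on scaffold 72 held 4, with 2 in each technical replicate of replicate 1. There were 6 runs of 9. The one with the shortest span, on scaffold 1129 (185819 to 199646), had regions of 165 bp to 413 bp in 13.8 kb, and again no library peak between them.

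**Figure D3:**
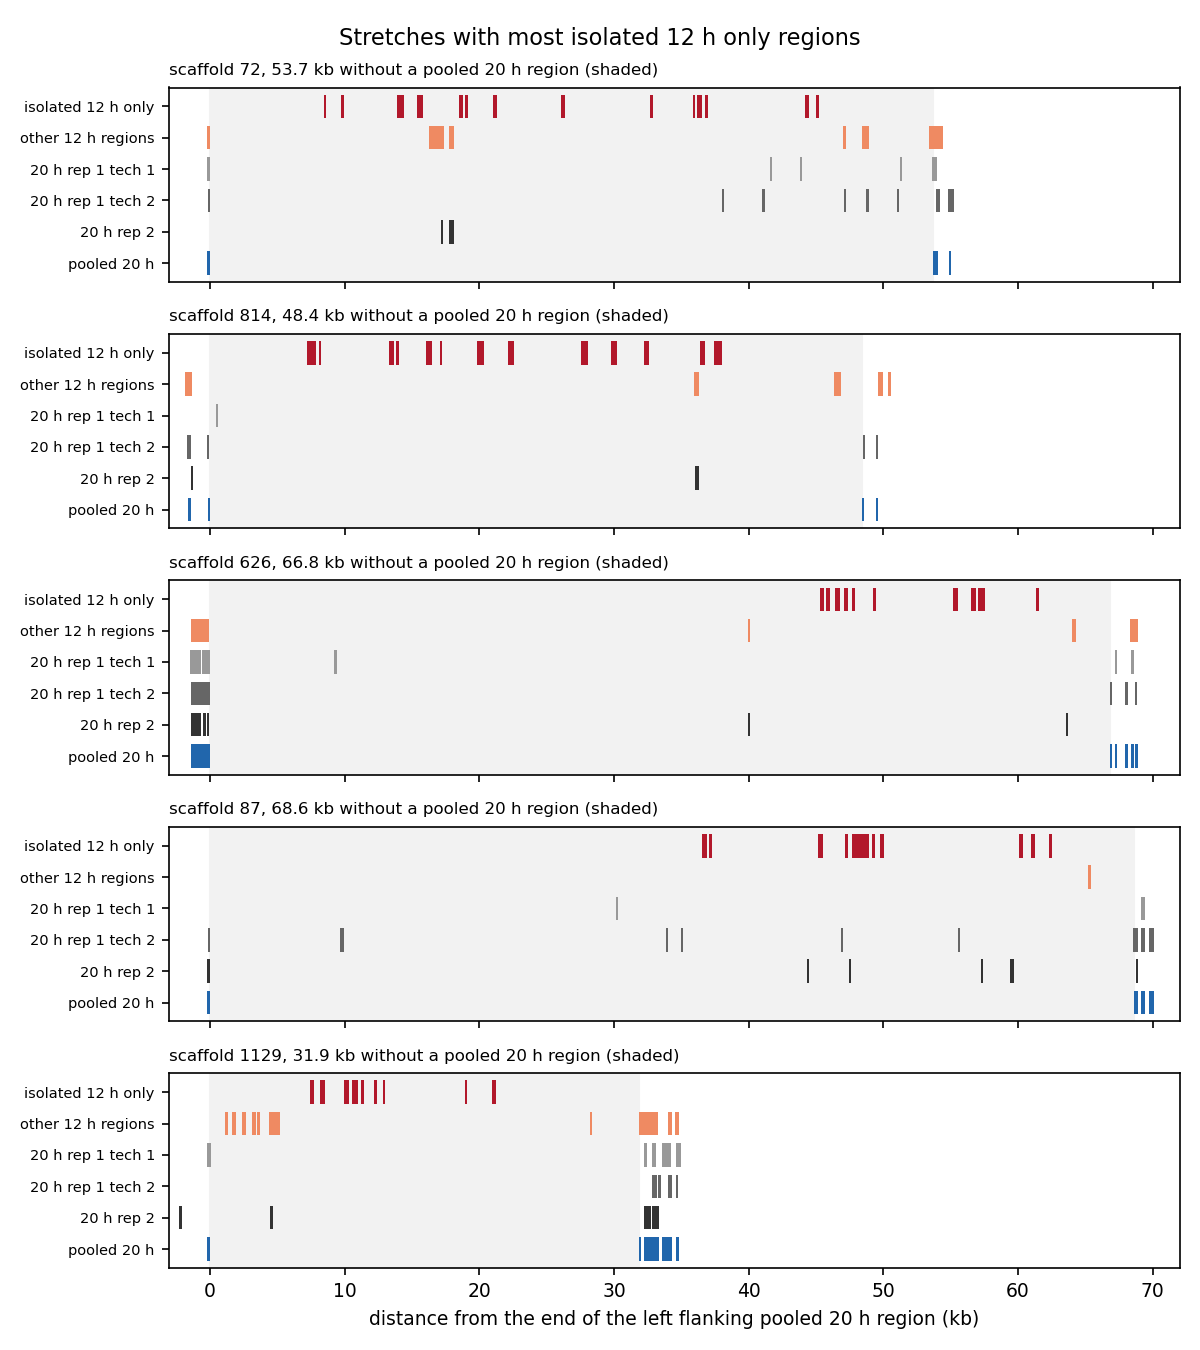
Maps of the 5 stretches without a pooled 20 h region (shaded) that held most isolated regions, with distance from the left flanking 20 h region on the x axis (kb) and, in rows from top to bottom, isolated regions, other 12 h regions, peaks of each 20 h library and pooled 20 h regions. On scaffold 814 the isolated regions stand over an empty shaded area with 1 peak of replicate 2 and 1 of technical replicate 1, whereas on scaffold 87 peaks of technical replicate 2 and replicate 2 are scattered among them.

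Regions in runs were longer than single ones. The median length was 203 bp (199 to 206) for single isolated regions, 233 bp (225 to 241) in runs of 2 to 4 and 287 bp (264 to 310) in runs of 5 or more. Lengths of at least 500 bp were found for 5.05% (4.11 to 6.20), 9.52% (8.03 to 11.3) and 18.9% (14.3 to 24.6) in the same order, and lengths under 200 bp for 48.1%, 36.0% and 19.8%. Nearby 12 h only regions without a library peak showed no such order. These must lie beside pooled 20 h regions without overlapping one, which leaves less room for long regions. The comparison therefore does not make the order particular to isolated regions. Their medians were 220 bp (219 to 221) when single, 223 bp (221 to 225) in runs of 2 to 4 of their own class and 219.5 bp (203 to 230) in runs of 5 or more. Regions of a run share their scaffold and are not independent, so that the intervals are too narrow, and the difference between both classes was not tested.

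**Figure D4:**
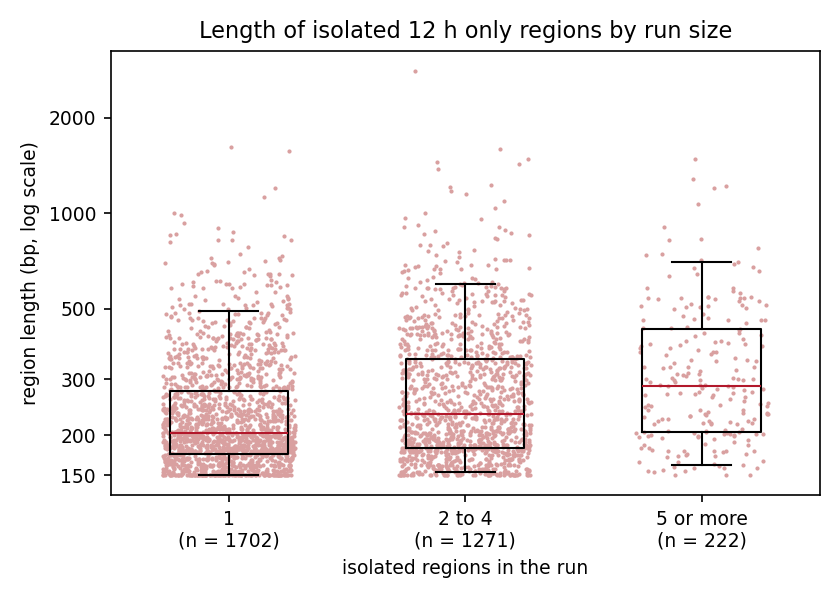
Length of isolated 12 h only regions (y axis, bp on a log scale) by the number of isolated regions in their run (x axis), with a point for each region, boxes for quartiles with the median in red and whiskers from the 5th to the 95th percentile. The median is 203 bp for single regions, 233 bp for runs of 2 to 4 and 287 bp for runs of 5 or more.

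Stretches between neighbouring pooled 20 h regions show how isolated regions are spread over ground without a pooled 20 h region. The median stretch was 1349 bp, and 11591 stretches exceeded 10000 bp, the shortest that can hold an isolated region with a 20 h region on both sides. Of these, 5555 held a 12 h region and 1534, or 13.2%, held an isolated one, which was a single one in 1133 stretches and at least 5 in 24. The share of stretches with an isolated region was 6.22% at 10000 to 15000 bp, 21.2% at 20000 to 50000 bp and 42.0% of the 50 stretches over 100000 bp. Only ground more than 5000 bp from both ends can hold an isolated region. Longer stretches have more of it, so that this rise follows in part from the rule.

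Density ran the other way. More than 5000 bp from either end, isolated regions had 33.2 per Mb in stretches of 10000 to 15000 bp, 16.9 per Mb at 20000 to 50000 bp and 8.86 per Mb over 100000 bp. All 12 h regions had 57.7, 22.9 and 11.5 per Mb in the same classes. Isolated regions made up 57.5% of these 12 h regions in the shortest class and 73.7% at 20000 to 50000 bp. Their share was 79.6% at 50000 to 100000 bp and 76.9% over 100000 bp. A 12 h region with its midpoint more than 5000 bp from both ends but an edge nearer was counted and could not be isolated. Such regions weigh most in the shortest stretches, so that part of this rise follows from the count. Peaks of the libraries thinned out likewise up to 100000 bp, with 23.2, 60.7 and 24.5 per Mb in the shortest class and 5.82, 18.3 and 6.29 per Mb at 50000 to 100000 bp in technical replicates 1 and 2 and replicate 2. In the longest class replicate 2 was higher again, at 10.1 per Mb.

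**Figure D5:**
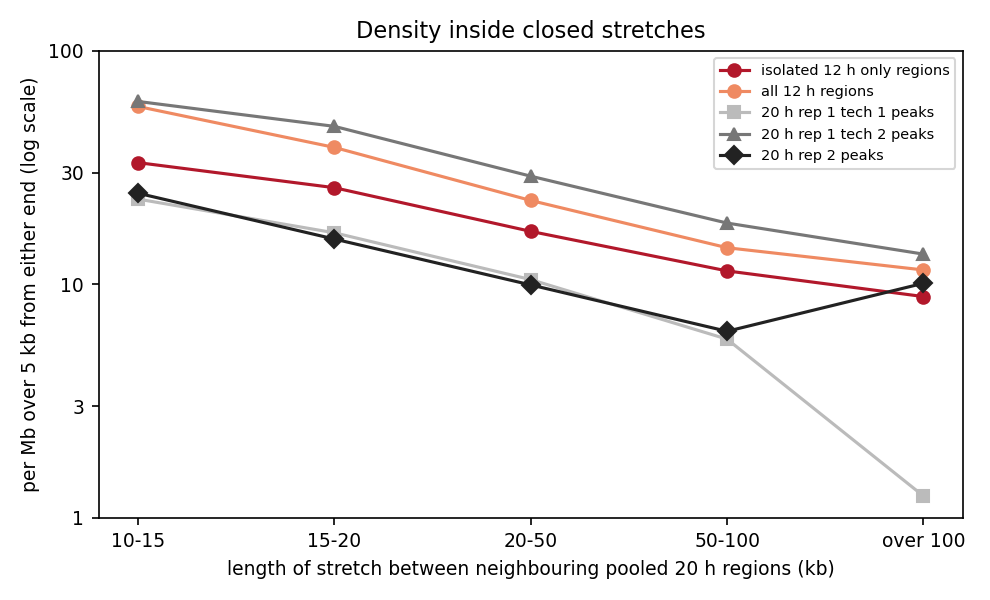
Density per Mb (y axis, log scale) of isolated 12 h only regions, all 12 h regions and peaks of each 20 h library, counted more than 5 kb from either end of stretches between neighbouring pooled 20 h regions, by stretch length (x axis, kb). Isolated regions run from 33.2 per Mb in stretches of 10 to 15 kb down to 8.86 per Mb over 100 kb, and the lines of all 12 h regions and of the libraries slope the same way, except replicate 2 in the last class.

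The longest stretch with an isolated region was 200.4 kb on scaffold 2819 (39528 to 239975), and it held a single 12 h region and 2 peaks of technical replicate 1. A stretch of 180.2 kb on scaffold 108 (678985 to 859181) also held a single 12 h region. On scaffold 272 (192352 to 356436), 164.1 kb held 5 12 h regions of which 4 were isolated, with 4 peaks each in technical replicate 2 and replicate 2. The other 2 of the 5 longest lay on scaffold 136 (239435 to 389475) and on scaffold 424 (95346 to 233472), with 2 and 3 isolated regions. These 5 stretches thus held between 1 and 5 12 h regions each, in more than 100 kb.

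The stretches with most isolated regions were shorter and much denser, which follows in part from how both groups were picked. On scaffold 72 (224698 to 278356), 14 of 18 12 h regions in 53.7 kb were isolated. On scaffold 814 (229357 to 277737) it was 13 of 15 in 48.4 kb, which is 310 12 h regions per Mb and above the 273 per Mb of the whole span. A region with a peak of replicate 2 interrupted the isolated regions there. Scaffold 626 (106657 to 173499) had 10 of 12, scaffold 87 (695735 to 764330) had 10 of 11 and scaffold 1129 (178405 to 210263) had 9 of 16, at 502 per Mb. Of 3705 stretches over 20 kb, 14 had at least as many 12 h regions per Mb as the whole span, with 74 isolated regions among them, and 1908, or 51.5%, held no 12 h region at all.

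Isolated regions were spread over 1574 of the 6210 scaffolds that held regions of both stages, or 25.3%, and 839 of these had a single one. The 360 scaffolds richest in isolated regions were needed to reach 50% of them. Only 110 scaffolds had 5 or more, with 752 regions, and 12 had 10 or more, with 158. The share of 12 h regions that were isolated was 2.38% (1.98 to 2.87) on scaffolds spanning up to 20000 bp, 4.21% (3.75 to 4.72) on those spanning 20000 to 50000 bp, 2.34% (2.16 to 2.54) at 100000 to 200000 bp and 0.777% (0.728 to 0.828) over 500000 bp. On the short scaffolds of 20000 to 50000 bp, 82.2% of isolated regions lay beyond the outermost 20 h region, against 9.32% over 500000 bp.

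Scaffold 72 held the most isolated regions, 18 of 318 12 h regions or 5.66% (3.61 to 8.77). Scaffold 806 had 17 of 120, scaffold 814 had 16 of 109, and 4 scaffolds had 13, among them scaffolds 2047 and 626 with the fewest 12 h regions, 28 and 48. Scaffold 2047 was set apart by its low number of pooled 20 h regions, 8 in 122.6 kb, and 46.4% (29.5 to 64.2) of its 12 h regions were isolated. Among 313 scaffolds with at least 200 12 h regions the share was highest on scaffold 87, with 13 of 220 or 5.91% (3.49 to 9.85), then on scaffold 72, and on scaffold 24 with 10 of 259 or 3.86% (2.11 to 6.96). Runs of 10 on scaffold 87, 10 on scaffold 72 and 9 on scaffold 24 gave most of each count. The lowest shares were 0 of 575 on scaffold 4, which allows up to 0.522%, 0 of 564 on scaffold 143, which allows up to 0.532%, and 0 of 562 on scaffold 329, which allows up to 0.534%. In all, 94 of the 313 scaffolds had none, and the median share was 0.446%. Scaffolds were picked as extremes, so that their intervals are too narrow.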

How the data were processed

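ATAC-seq lists of *S. purpuratus* embryos were used as deposited. Reads had been mapped by the authors to genome version 3.1 in the ENCODE pipeline for ATAC-seq, with MACS2 peaks at p 0.05, keeping at most 300000 per list. For MACS2 the version was not given in the sources used here. The pooled list of each stage holds merged positions without a score or signal. Per the file headers and column order, each deposited 20 h library list gives a score, a fold enrichment (a ratio to local background), and −log10 p and −log10 q values. No list holds read counts, so depth could not be equalised. The library lists held 248700, 300000 and 160654 peaks, for technical replicate 1 and technical replicate 2 of replicate 1 and for replicate 2.

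Peaks of a library that overlapped or touched were merged, except for fold enrichments and q values. Overlap meant at least 1 bp, and distance the bases between regions. The highest coordinate of any list served as scaffold length, and densities count midpoints. Shares have 95% Wilson intervals and medians 95% intervals from binomial ranks. The limit for a share of 0 is 3 counts. Functions were tested on simulated data. Python 3.11.15, numpy 2.4.6, pandas 2.3.3, scipy 1.17.1 and matplotlib 3.10.9 were used.

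Named regions are the 10 longest, the 5 on each side of the limit and those of the 5 longest runs. The 5 farthest from 20 h regions were taken only among those with a 20 h region on both sides. Named stretches are the 5 longest with an isolated region and the 5 most populated. Named scaffolds are the 5 with most isolated regions, and the 3 highest and 3 lowest shares among scaffolds with at least 200 12 h regions. The regions, rules and comparisons were chosen with earlier results of these data known. Ties among runs went to the shorter span and among scaffolds to fewer 12 h regions. The comparison of run sizes with nearby regions, the count of dense stretches, and gaps and densities of 12 h only regions were added after values were seen. Alternatives were other distance limits, stricter library peaks, merged or longest regions, scaffold conditions, replicated 20 h regions and leaving out each library. No genome or annotation of version 3.1 was used here, so no sequence is shown and no gene named.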

Additional observations from a re-analysis of the deposited data

How the results depend on the processing

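The number of isolated regions, 3195, moved to 10512 at a limit of 2000 bp, 1264 at 10000 bp, 567 among the longest 100000 12 h regions and 14679 against 20 h regions found in both biological replicates. A wider limit, fewer 12 h regions or fewer 20 h regions act on the count by construction. The median length, 217 bp, was 223 bp at 10000 bp, 223 bp without a condition on library peaks, 222 bp and 223 bp with library peaks of −log10 p of at least 3 or q below 0.05, 222 bp with replicated 20 h regions and 474 bp among the longest 100000. The share followed by another isolated region, 32.9%, was 24.7% at 2000 bp, 40.2% at 10000 bp, 39.4%, 36.6% and 37.9% under the looser library conditions in the same order, 26.7% among the longest 100000, 29.4% between 20 h regions only and 26.7% with replicated 20 h regions. Library peaks within 5000 bp, 35.4 per Mb, moved to 186.8 at 2000 bp, where pooled 20 h regions enter the flanks, and to 23.6 at 10000 bp. Leaving out each library, or both of replicate 1, gave 3313 to 3943 regions, medians of 217 to 220 bp, 33.6%, 35.2%, 35.6% or 36.4% followed by another and 28.5 to 44.9 peaks per Mb. The pooled 20 h list, called on all 20 h libraries, was left unchanged in these settings. The count could therefore only rise, to at most 4322, and its range does not show how the result depends on a library. For the shifts not fixed by construction the cause was not tested. All 10 longest regions stayed isolated without each library, which is fixed by the rule, since every isolated region stays one when a condition is removed. At 10000 bp, 6 of these 10 stayed isolated. No paired analysis was possible because only 1 pooled list represents the 12 h libraries. Depth differed between stages, batches of embryos cannot be told apart from stage, and whether isolated regions were found in both 12 h replicates was not analysed here.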

Other observations

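A further 1511 12 h regions lay on 1300 scaffolds without any pooled 20 h region and could not enter the rule. Their median length was 202 bp, below the 217 bp of isolated regions, and 1085 of them overlapped no peak of any 20 h library.

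The distance condition was also applied with the stages exchanged. On scaffolds with a 12 h region, 12212 pooled 20 h regions, or 4.72%, lay more than 5000 bp from every 12 h region, with a median length of 212 bp. The 12 h regions equally far from every 20 h region numbered 4322, or 1.81%. Regions meeting the distance condition alone were thus more frequent in the 20 h list, and the difference has no replicate test. The stages differed in depth and each list was kept to at most 300000 peaks before merging. The part of either was not tested.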
